A study of Mus musculus with 11 samples.

Results

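The genes that switch on Ras downstream of the B cell receptor were followed in splenic B cells. They were the 3 RasGRP exchange factors Rasgrp1, Rasgrp2 and Rasgrp3, the 2 SOS exchange factors Sos1 and Sos2, and the adaptor Grb2. Values came from the probe sets of the Mouse Genome 430 2.0 array whose annotation names 1 of these symbols and no other gene. That gave 18 probe sets of 45101 in the deposited table, and 6 genes of the 18193 that could be tested. Rasgrp1 and Rasgrp2 had 4 probe sets each, Sos1 had 5, Rasgrp3 and Grb2 had 2 each, and Sos2 had 1. All 6 genes were measured and none was dropped by a filter.

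The 11 arrays fell into 4 groups. B cells came from female mice aged 6 weeks of the strains NOD/ShiLtJ (NOD) and NOD.NOR-Chr4/DvsJ (NR4). Cells of either strain spent 2 h in culture, either without a stimulus (unstimulated) or with goat anti-mouse IgM F(ab')2 at 10 µg/ml, which cross-links the B cell receptor (anti-IgM). NOD had 3 unstimulated and 2 anti-IgM arrays, and NR4 had 3 of either kind. The NOD mouse develops autoimmune diabetes spontaneously, and the NR4 strain, by its name, is NOD carrying chromosome 4 material of the related NOR strain. None of the 6 genes lies on that chromosome in the RefSeq annotation. Each array held the RNA of a lot of 7 to 8 pooled spleens, with 3 lots per strain, and the B cells had been purified by magnetic depletion of other cells. Values therefore describe pools of mice and whole B cell populations, not single animals or B cell subsets.

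Ras proteins are small GTPases that are on when bound to GTP, and guanine nucleotide exchange factors load them with it. In lymphocytes Rasgrp1 and Rasgrp3 are recruited to membranes by diacylglycerol, which phospholipase C gamma makes after antigen receptor engagement. Protein kinase C phosphorylates both. Rasgrp3 and Rasgrp1 are the members that act on Ras in B cells, whereas Rasgrp2, also known as CalDAG-GEFI, acts mainly on Rap and is best known in platelets. SOS proteins reach Ras by a separate route, carried by the adaptor GRB2 to phosphorylated tyrosines of receptors and scaffold proteins. Both routes lead to the RAF, MEK and ERK kinases.

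The deposited values were processed with RMA, were taken as log2, and had been centred so that each probe set has a median of 0 over the 11 arrays. They show how far an array lies above or below the middle array for that probe set. They hold no level, so neither detection nor the abundance of 1 gene relative to another could be judged, and the labelled cell type could not be checked by the presence of its markers. A gene's value was the median of its probe sets. Responses are anti-IgM minus unstimulated, strain differences are NOD minus NR4, and a gene was called when its Benjamini-Hochberg adjusted p in limma's fit over all genes lay below 0.05. The replicates of a group were separate lots, while the unstimulated and anti-IgM cells of a strain came from the same lots. Whether a replicate number stands for the same lot in both cultures is not stated in the labels. The array of anti-IgM NR4 replicate 1 stood apart in RNA quality. Its 3' minus 5' difference over the Gapdh and actin control probe sets was 0.96, against -0.08 to 0.29 on the other 10 arrays. This measure also went partly with culture. It was 0.04 to 0.23 on the other anti-IgM arrays. On the unstimulated arrays it was -0.08 to -0.0069, save 0.29 on NR4 replicate 3. The part of RNA quality in the responses was not tested. In bulk samples such as these, fewer cells of a type and less RNA per cell cannot be told apart.

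The promoter windows of the gene that fell most, of its close relative Rasgrp1 and of the steadiest member are shown to set their sequences side by side. Each is the 250 bases before a RefSeq start site on build GRCm38.p6, read 5′ to 3′ on the strand of the gene. Capitals mark every match to the motifs searched. Rasgrp3 and Grb2 have a pair of start sites each in that table. Both Rasgrp3 windows are given, and for Grb2 the window that held a match.
Rasgrp3, GRCm38.p6 chr17:75435655-75435904, plus strand: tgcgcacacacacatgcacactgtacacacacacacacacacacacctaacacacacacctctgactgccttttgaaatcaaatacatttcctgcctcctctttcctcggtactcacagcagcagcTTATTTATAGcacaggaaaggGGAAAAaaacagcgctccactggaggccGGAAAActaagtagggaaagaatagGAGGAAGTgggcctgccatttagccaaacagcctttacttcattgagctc
Rasgrp3, GRCm38.p6 chr17:75465288-75465537, plus strand: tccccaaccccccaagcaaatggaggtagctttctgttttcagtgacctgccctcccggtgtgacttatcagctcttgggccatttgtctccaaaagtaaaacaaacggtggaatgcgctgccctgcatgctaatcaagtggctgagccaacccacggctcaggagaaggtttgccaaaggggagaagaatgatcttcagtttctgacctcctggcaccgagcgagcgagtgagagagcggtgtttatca
Rasgrp1, GRCm38.p6 chr2:117342878-117343127, minus strand: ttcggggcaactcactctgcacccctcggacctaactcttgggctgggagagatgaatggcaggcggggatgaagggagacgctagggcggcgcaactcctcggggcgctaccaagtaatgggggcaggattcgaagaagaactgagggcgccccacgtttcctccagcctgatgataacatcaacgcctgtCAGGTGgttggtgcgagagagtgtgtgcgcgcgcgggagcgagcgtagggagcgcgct
Grb2, GRCm38.p6 chr11:115699535-115699784, minus strand: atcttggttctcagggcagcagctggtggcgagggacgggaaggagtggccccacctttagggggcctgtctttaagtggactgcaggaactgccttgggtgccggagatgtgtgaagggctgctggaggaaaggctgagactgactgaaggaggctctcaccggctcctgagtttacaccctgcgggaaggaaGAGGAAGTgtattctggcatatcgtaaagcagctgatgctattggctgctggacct

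The search used 9 motifs of factors that act in B cells or downstream of ERK and calcium, on both strands. The motifs were GGAAAA (NFAT), GAGGAAGT (PU.1), CAGGTG (an E box bound by E proteins), TGANTCA (AP-1), TGACGTCA (CRE), GCGNGGGCG (EGR), GTAAACA (FOXO), the MEF2 site and the SRF CArG box. The first Rasgrp3 window held a MEF2 match 124 to 115 bases before the start, GGAAAA at 103 to 98 and again at 75 to 70, and GAGGAAGT at 50 to 43. None of these overlapped another. The second Rasgrp3 window held none of the 9 motifs. Rasgrp1 held CAGGTG 58 to 53 bases before its start, and Grb2 held GAGGAAGT at 56 to 49. Of the windows not shown, Sos1 held GGAAAA and Sos2 held an EGR match. Among all 32851 windows of this length, 2.92% held the MEF2 site, 20.4% GGAAAA, 2.44% GAGGAAGT, 17.2% CAGGTG and 4.7% the EGR motif. The 4 motifs that no member held were present in 6.75% (AP-1), 1.55% (CRE), 3.17% (FOXO) and 1.47% (CArG box) of windows. The Rasgrp3 windows had a GC content of 47.6% and 52.8%, those of Grb2 57.2% and 47.6%, and those of Rasgrp2 79.6% and 67.2%. It was 62.4% for Rasgrp1, 70.4% for Sos1 and 82.8% for Sos2, with a median of 52.4% over all windows. A match is a description of the letters and was not tested as a binding site.

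Rasgrp3 was the member that fell with B cell receptor cross-linking, with no overlap between cultures in either strain. On the centred log2 scale the unstimulated NOD arrays read 0.30, 0.16 and 0.20 and the anti-IgM NOD arrays -0.50 and -0.79. The unstimulated NR4 arrays read 0.12, 0 and 0.38 and the anti-IgM NR4 arrays -0.74, -0.80 and -0.94. Every anti-IgM array lay below every unstimulated array. Group means were 0.22 ± 0.07 (SD, n = 3) and -0.65 ± 0.21 (n = 2) in NOD, and 0.17 ± 0.20 (n = 3) and -0.83 ± 0.10 (n = 3) in NR4. Averaged over the strains the response was -0.93 (SE 0.09, 95% interval -1.14 to -0.72), a 1.91-fold lower signal, with an adjusted p of 0.00115 in limma's fit. It had the 21st smallest p of all 18193 genes and the 7th smallest among those that were lower. In that comparison 283 genes were called, 1.56 percent, of which 153 were lower, 0.841 percent.

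Rasgrp3 was the 1 called member of 6. The response in NR4 alone was -0.99 (SE 0.12), with an adjusted p of 0.0101, in a comparison with 0.247 percent of genes called lower. In NOD, with 2 anti-IgM arrays, it was -0.87 (SE 0.14) and did not pass, with an adjusted p of 0.0695, and 0.0165 percent of genes were called lower there. It passed in 3 of 10 other settings, with the replicate number as a fixed block (adjusted p 0.0445), with that number within strain as a random block (0.0168) and with array weights (0.0207). The NR4 call was lost when arrays were quantile normalized again (adjusted p 0.0724) and when NR4 arrays alone were fitted (0.133). In the averaged comparison the call was kept in each of the 11 fits that left out a single array, with responses of -1.004 to -0.86 and adjusted p of 0.00236 to 0.0102. Without anti-IgM NR4 replicate 1, the array that stood apart, the response was -0.95 (adjusted p 0.00318).

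**Figure D1:**
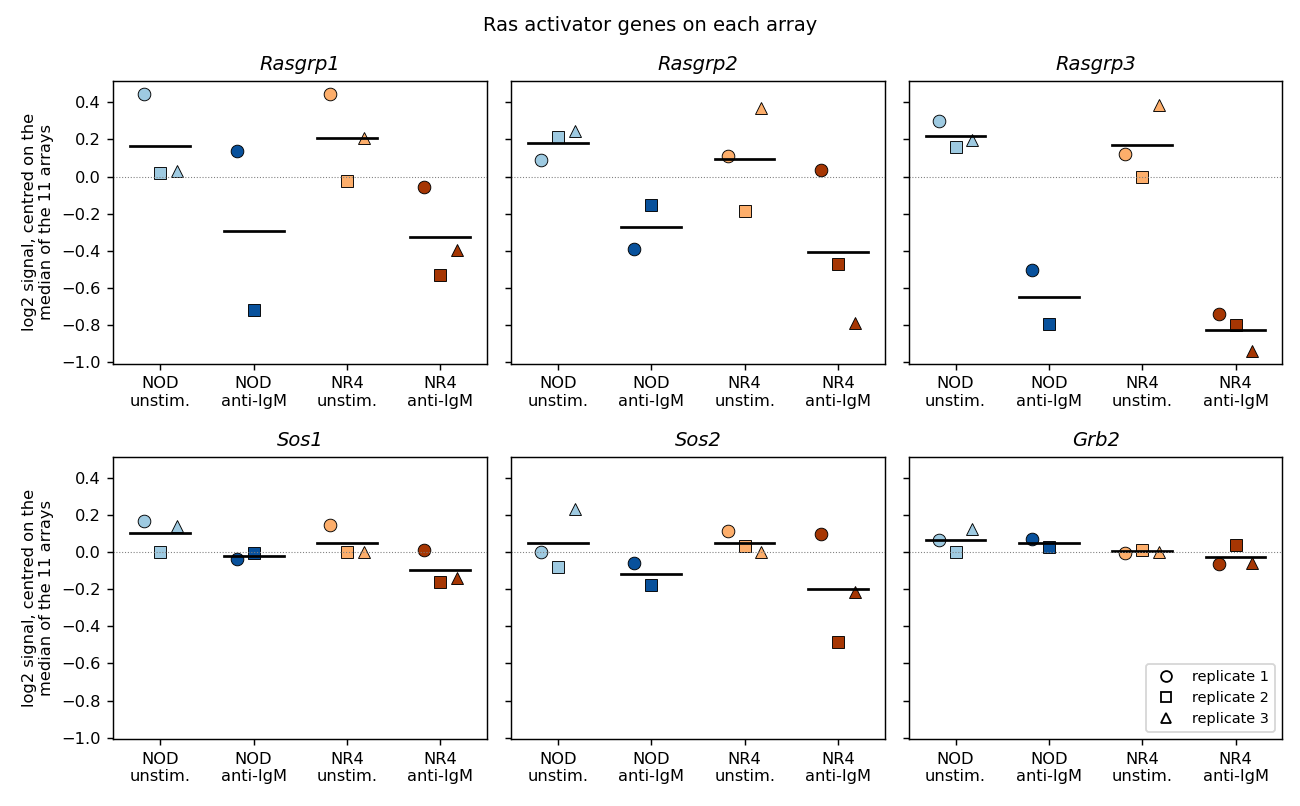
Centred log2 signal (vertical axis, 0 is the median of the 11 arrays) of the 6 genes on each array, by strain and culture (horizontal axis); circles, squares and triangles are replicates 1, 2 and 3 and bars are group means. For Rasgrp3 the anti-IgM arrays, at -0.94 to -0.50, lie below all unstimulated arrays, at 0 to 0.38, whereas the arrays of Grb2 all lie between -0.06 and 0.12.

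The fall of Rasgrp3 was seen by both of its probe sets. Probe set 1438030_at read 0.38, 0.14 and 0.19 in unstimulated NOD, -0.40 and -0.996 in anti-IgM NOD, 0.14, 0 and 0.20 in unstimulated NR4, and -1.27, -0.84 and -1.07 in anti-IgM NR4. Its averaged response was -1.05 (SE 0.13), with an adjusted p of 0.00717 in limma's fit over the 45037 probe sets. Probe set 1438031_at read 0.22, 0.18 and 0.21, then -0.60 and -0.59, in NOD, and 0.10, 0 and 0.57, then -0.21, -0.76 and -0.81, in NR4. Its response was -0.81 (SE 0.14, adjusted p 0.0306). Neither probe set had overlapping cultures in either strain. They differed most on anti-IgM NR4 replicate 1, where 1438030_at was at its lowest and 1438031_at at its highest among anti-IgM arrays. Over the 11 arrays, which share lots, the values of both probe sets had a Pearson r of 0.82.

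Rasgrp1, the RasGRP that is also central in T cells, read lower on average but varied widely between arrays, and did not pass the test. Unstimulated NOD arrays read 0.44, 0.02 and 0.03 and anti-IgM NOD arrays 0.14 and -0.72. Unstimulated NR4 arrays read 0.45, -0.02 and 0.21 and anti-IgM NR4 arrays -0.05, -0.53 and -0.40. The cultures overlapped in NOD and were separate in NR4, with -0.02 and -0.05 as the nearest arrays. The share of all genes separated in NR4 was not determined, so this separation is description only. The averaged response was -0.50 (SE 0.17, 95% interval -0.88 to -0.12) and did not pass (adjusted p 0.249).

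Between the cultures of a strain, arrays with the same replicate number deviated from their group means together. The correlation was above 0 in all 5 such pairs. Anti-IgM NOD had only 2 arrays, whose deviations from their group mean are exact opposites. An array's correlation with 1 of them is therefore its correlation with the other with the sign reversed. Correlations that involve these 2 arrays, within NOD or between strains, are thus not independent of each other. Between strains, whose lots differ, same-numbered arrays also had correlations above 0, save -0.121 for replicate 2 of the anti-IgM cultures. Among unstimulated arrays these were 0.59, 0.207 and 0.512. Anti-IgM NOD replicate 2 had a higher correlation with unstimulated NOD replicate 3 (0.58) than with replicate 2 (0.118). What the number stands for was not tested. Differences within a number were steadier for Rasgrp1. They were -0.31 and -0.74 in NOD and -0.50, -0.51 and -0.60 in NR4, all 5 below 0. All 5 were also below 0 for Rasgrp2, Rasgrp3, Sos1 and Sos2, and 2 of 5 for Grb2. The share over all genes was not determined. With the replicate number as a block, Rasgrp1 fell by 0.51 (SE 0.08) on the log2 scale, with an adjusted p of 0.0129 in limma's fit. That fit called 558 genes, 3.07 percent, with 1.81 percent lower, and its 2 called members were Rasgrp3 and Rasgrp1. This was the 1 setting of 9 in which Rasgrp1 passed. With the number within strain as a random block, a fit that called 756 genes, it did not (-0.51, adjusted p 0.0566), and the adjusted p reached 0.87 with the lowest-numbered probe set. Leaving out anti-IgM NOD replicate 2, the lowest array, gave an unblocked response of -0.28, and leaving out anti-IgM NOD replicate 1 gave -0.71 (adjusted p 0.0814).

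Of the 4 Rasgrp1 probe sets, 1434295_at fell by 0.60 (SE 0.10, adjusted p 0.0279). It read 0.24, 0.04 and 0.23, then -0.23 and -0.54, in NOD, and 0.35, 0 and 0.22, then -0.36, -0.44 and -0.58, in NR4, without overlap in either strain. Probe set 1431749_a_at had a larger difference, -0.78 (SE 0.18), which did not pass (adjusted p 0.0879), although it passed with the replicate block (0.0245), where 1.01 percent of probe sets were called lower. The remaining 1421176_at and 1450143_at differed by -0.31 (SE 0.29) and -0.35 (SE 0.22), neither past the threshold.

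Rasgrp2, the exchange factor for Rap, showed a difference of similar size that did not pass the test. Unstimulated arrays read 0.09, 0.21 and 0.25 in NOD and 0.11, -0.19 and 0.37 in NR4. Anti-IgM arrays read -0.39 and -0.16 in NOD and 0.04, -0.47 and -0.79 in NR4. The cultures were separate in NOD and overlapped in NR4, where anti-IgM replicate 1 was within the unstimulated range. The averaged response was -0.48 (SE 0.15, adjusted p 0.204). Without anti-IgM NR4 replicate 1 it was -0.59 (adjusted p 0.0541). Probe sets 1417804_at (-0.57, SE 0.14, adjusted p 0.113) and 1442264_at (-0.70, SE 0.17, adjusted p 0.11) were lower without overlap in both strains but did not pass. Probe sets 1438932_at and 1438933_x_at overlapped in NR4, with differences of -0.28 and -0.31.

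**Figure D2:**
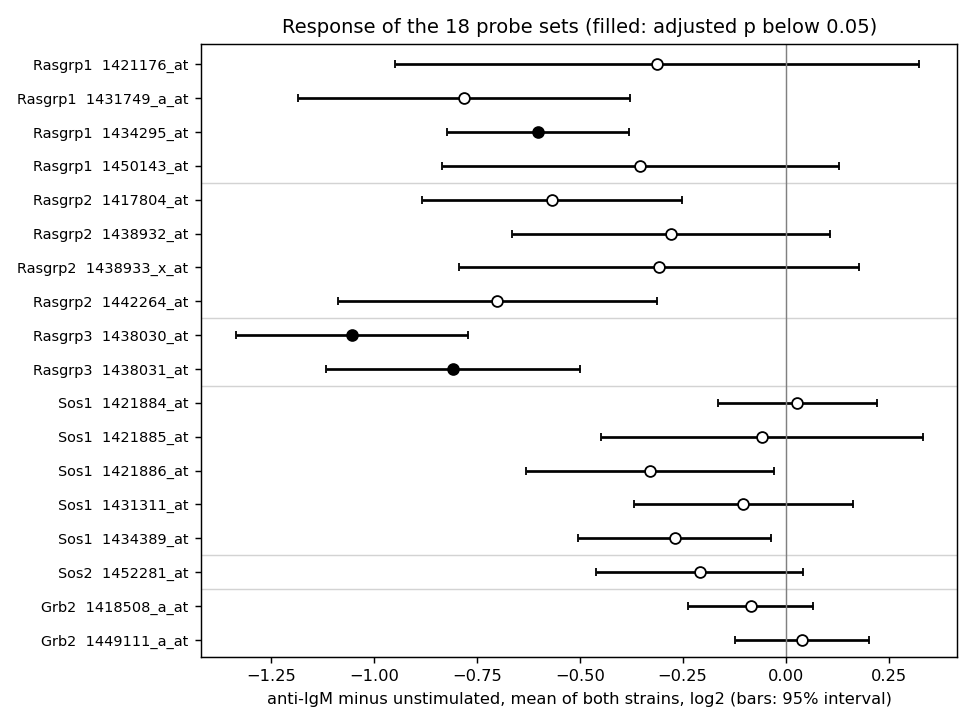
Averaged anti-IgM minus unstimulated difference (horizontal axis, log2, with 95% intervals) of each of the 18 probe sets, named with their gene on the vertical axis; filled points have an adjusted p below 0.05. The 3 filled points are both Rasgrp3 probe sets and 1434295_at of Rasgrp1, and 16 of the 18 points lie below 0.

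Neither SOS gene passed the test. Sos1, the more widely required of the 2 SOS factors, read 0.17, 0.00 and 0.14, then -0.03 and -0.00, in NOD, and 0.15, 0 and 0, then 0.01, -0.16 and -0.14, in NR4. The cultures overlapped in NR4, and in NOD the nearest arrays were both at about 0. Its averaged response was -0.13 (SE 0.07, 95% interval -0.29 to 0.02, adjusted p 0.548). The sign depended on the probe set: 1421884_at gave 0.03 and 1421886_at -0.33, and 1421885_at, 1431311_at and 1434389_at gave -0.06, -0.10 and -0.27, none past the threshold. Over the 11 arrays the 5 Sos1 probe sets had pairwise Pearson r from -0.57 to 0.72, with a median of 0.23, against a lowest r of 0.52 within Rasgrp1 and 0.48 within Rasgrp2.

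Sos2, with the single probe set 1452281_at, read 0, -0.08 and 0.23, then -0.06 and -0.18, in NOD, and 0.12, 0.03 and 0, then 0.10, -0.48 and -0.21, in NR4. The cultures overlapped in both strains, and anti-IgM NR4 replicate 2 was the lowest array. The response was -0.21 (SE 0.11, 95% interval -0.45 to 0.03, adjusted p 0.544).

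Grb2, which carries SOS to the receptor complex, was the steadiest of the 6 genes. Its arrays read 0.07, 0.00 and 0.12, then 0.07 and 0.03, in NOD, and -0.00, 0.01 and 0.00, then -0.06, 0.04 and -0.06, in NR4. All 11 values lay within 0.2 log2 units of each other, and the cultures overlapped. The averaged response was -0.02 (SE 0.06, 95% interval -0.15 to 0.11, adjusted p 0.979). Probe sets 1418508_a_at and 1449111_a_at gave -0.08 and 0.04.

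The residual standard deviation within groups was 0.05 for Grb2 and 0.08 for Sos1, at the 1.18th and 9.15th percentile of all genes, whose median was 0.18. It was 0.15 for Rasgrp3, 0.18 for Sos2, 0.28 for Rasgrp2 and 0.32 for Rasgrp1, the last at the 86th percentile. The precision of a response thus differed between members, and the intervals of Rasgrp1 and Rasgrp2 were the widest.

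The 6 averaged responses were all below 0, with a median of -0.34. Over all 18193 genes 49% were below 0 and the median was 0.0034. Unadjusted p lay below 0.05 for the 3 RasGRP genes, against 7.25 percent of genes that were lower at that level. At the level of probe sets 3 of 18 were called, all lower, against 0.591 percent of all probe sets. Without overlap in both strains were Rasgrp3 among the genes and 5 of the 18 probe sets, 2 of Rasgrp3, 2 of Rasgrp2 and 1 of Rasgrp1, against 3.56 percent of genes and 3.22 percent of probe sets that were lower in this way. The count of 3 called probe sets fell to 1 in 7 of the 11 fits that left out an array, those without any of the 3 unstimulated NOD arrays, either anti-IgM NOD array, unstimulated NR4 replicate 1 or anti-IgM NR4 replicate 3, and rose to 4 without anti-IgM NR4 replicate 1.

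**Figure D3:**
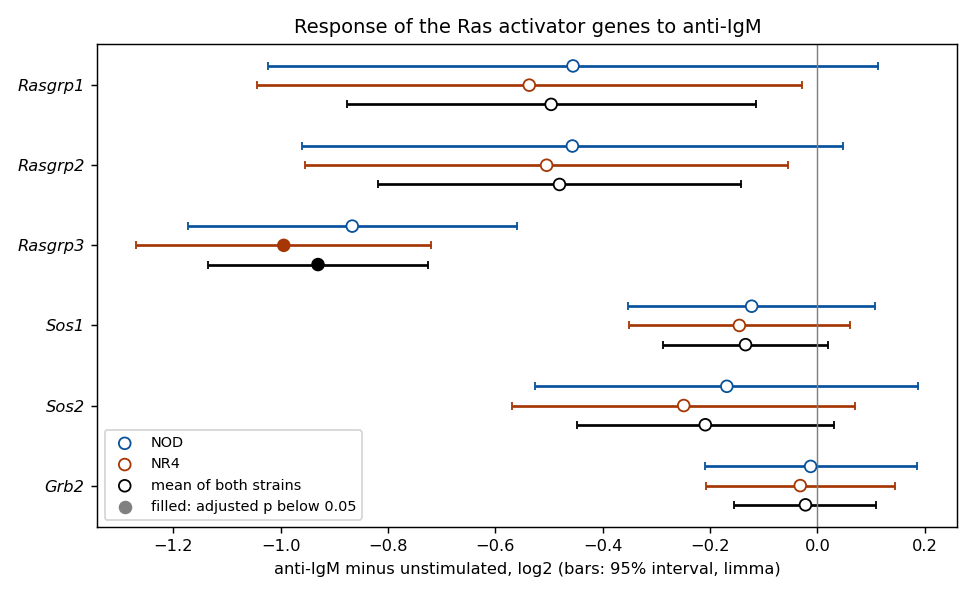
Anti-IgM minus unstimulated difference (horizontal axis, log2, with 95% intervals from limma) of the 6 genes in NOD, in NR4 and as the mean of both strains; filled points have an adjusted p below 0.05. The averaged Rasgrp3 point at -0.93 and its NR4 point at -0.99 are filled, and the Grb2 points lie between -0.03 and -0.01.

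The responses of the members were set against each other in all 15 pairs. The test was an exact two-sided permutation of the culture labels within strain, with 200 arrangements, a smallest possible p of 0.005 and Benjamini-Hochberg adjustment over the 15 pairs. These pairs were compared after the responses had been seen. The 95% intervals come from a linear model with a mean for each group, without moderation, and not from the permutation. They are not adjusted for the 15 pairs, so an interval can exclude 0 where the test did not pass. Rasgrp3 fell more than 4 of the other 5 members, each with a p of 0.005, the smallest possible, and an adjusted p of 0.0187. The response of Rasgrp3 minus that of the other gene was -0.80 for Sos1 (95% interval -1.03 to -0.57), -0.72 for Sos2 (-1.04 to -0.40) and -0.91 for Grb2 (-1.12 to -0.70). Within the family, the response of Rasgrp2 minus that of Rasgrp3 was 0.45 (interval 0.10 to 0.80), and the adjusted p became 0.0536 without _s_at and _x_at probe sets. The response of Rasgrp1 minus that of Rasgrp3 was 0.43 (interval 0.07 to 0.80, exact p 0.03), which did not pass after adjustment (0.075). The permutation does not use the replicate numbers. Within a number this difference was 0.49 and 0.22 in NOD and 0.36, 0.29 and 0.72 in NR4, all 5 above 0.

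The other 10 pairs did not pass. Rasgrp1 and Rasgrp2 differed by -0.02, with an interval of -0.58 to 0.55 that leaves room for a sizeable difference either way. Rasgrp2 and Grb2 differed by -0.46 (interval -0.88 to -0.04, exact p 0.025, adjusted p 0.075). Leaving out anti-IgM NR4 replicate 1 raised the number of passing pairs from 4 to 8. No pair passed without any of the 3 unstimulated NOD arrays, anti-IgM NOD replicate 2 or unstimulated NR4 replicate 2. Leaving out an array leaves 80 to 120 arrangements. Without an unstimulated NOD array the smallest possible p is 0.0167. Then 6 pairs would have to reach it for any to pass after adjustment, whereas 4 did, so these 3 losses say little about stability. Without unstimulated NR4 replicate 2 the smallest possible p is 0.01. There 4 pairs at that p would have passed and 3 reached it, so the number of arrangements did not fix this loss. That number did not fix the loss without anti-IgM NOD replicate 2 either. Over the 11 fits the response of Rasgrp3 minus that of Grb2 was -0.97 to -0.85, minus that of Sos1 -0.88 to -0.72 and minus that of Sos2 -0.80 to -0.66, and that of Rasgrp2 minus Rasgrp3 was 0.32 to 0.58.

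No member passed the test of a strain difference. The averaged NOD minus NR4 difference of Rasgrp3 was 0.11 (SE 0.09, 95% interval -0.09 to 0.32, adjusted p 1.00 in limma's fit). For the others it was -0.0052 for Rasgrp1 (interval -0.39 to 0.38), 0.11 for Rasgrp2 (-0.23 to 0.45), 0.07 for Sos1 (-0.09 to 0.22), 0.04 for Sos2 (-0.20 to 0.28) and 0.07 for Grb2 (-0.06 to 0.20). All 6 genes had overlapping strains in both cultures, against 1.54 percent of genes separated in both. In this comparison 22 genes were called, 0.121 percent. Among unstimulated arrays 11 genes were called (0.0605 percent) and among anti-IgM arrays 9 (0.0495 percent), again with no member. Markers of T cells, in which Rasgrp1 is best known, went both ways. Of 10 measured, 5 lay above 0 and 5 below, with a median of 0.05, and 0 were called. The lowest was Cd4 at -0.72 (adjusted p 0.0724, and 0.0251 with the replicate block). The highest was Cd3g at 1.02 (adjusted p 0.409). The part of these markers in the Rasgrp1 values was not tested.

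The response of Rasgrp3 was not shown to differ between strains either. Its NOD response minus its NR4 response was 0.13 (SE 0.19, 95% interval -0.28 to 0.54, adjusted p 1.00). For the other 5 members this difference lay between 0.02 and 0.08, and every interval included 0, the widest being that of Rasgrp1 at -0.68 to 0.84. Limma called 0 genes for this difference, 0.00 percent, and 255 genes, 1.40 percent, had an unadjusted p below 0.05.

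The rest of the pathway was read from 10 lists in order of signalling, with the averaged response and limma's adjusted p. In the list of the receptor and its proximal kinases, with 15 of 17 genes measured, 1 fell and none rose. This was Cd79b, a signalling chain of the B cell receptor, at -0.62 (SE 0.10, adjusted p 0.0159). The kinase Syk, named here after its value was seen, was at -0.49 (adjusted p 0.0532) and passed with the replicate block (0.0234). No gene of this list passed without anti-IgM NOD replicate 1 or replicate 2, and 2 passed without anti-IgM NR4 replicate 1. Of the adaptors that recruit or restrain GRB2 and SOS, 0 of 13 passed, with Gab1 at -0.25 and Themis2 at 0.19 having the smallest p.

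Diacylglycerol kinases remove the lipid that recruits Rasgrp1 and Rasgrp3, and 1 of the 7 measured fell. Dgka changed by -0.54 (SE 0.09, adjusted p 0.0168), a call lost without unstimulated NOD replicate 2, anti-IgM NOD replicate 1 or anti-IgM NOD replicate 2. Dgkh, named after its value was seen, was at 0.49 (adjusted p 0.0588) and passed with the replicate block (0.014). Of the 8 protein kinase C and D genes none passed, with Prkd2 at -0.40 (adjusted p 0.128) and Prkd3 at -0.19.

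No other exchange factor, Ras family GTPase, GTPase-activating protein or RAF, MEK and ERK gene passed in either direction. Among 11 other exchange factors, for Ras, Rap or Ral, Rapgef5 was at -0.38 (adjusted p 0.0933) and Rapgef2 at -0.21. Rapgef5 was past the threshold with the replicate block (0.0487). The list median was 0.0029, against -0.34 for the 6 members, but the list mixes factors for different GTPases. Of 11 Ras family GTPases none passed, with Rap2c at -0.18 and Rap2b at -0.22, and of 15 GTPase-activating proteins none passed, with Rasa1 at -0.19 and Rasa3 at -0.25. None of 8 RAF, MEK and ERK kinases and scaffolds passed, with Lamtor3 at 0.21 and Araf at -0.11.

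Of 14 early transcripts that ERK signalling is known to induce, 7 rose, none fell and 7 did not pass, with a list median of 0.35. Over all genes 0.715 percent were called higher in this comparison. The difference was below 0 for 2 of the 14, Mcl1 being the lowest at -0.18 (adjusted p 0.291). Myc rose by 1.46 (SE 0.18, adjusted p 0.00494), Nr4a1 by 1.43 (SE 0.20, adjusted p 0.0082), Fosb by 1.23 (SE 0.19, adjusted p 0.014) and Egr2 by 1.21 (SE 0.07, adjusted p 7.12e-05). All of these encode transcription factors. The count was 4 without anti-IgM NOD replicate 1 and 3 without replicate 2.

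Of 11 feedback inhibitors of ERK signalling 2 rose and 1 fell. Dusp4, a phosphatase of ERK in the nucleus, rose by 1.60 (SE 0.12, adjusted p 0.000364), and Spry1, an inhibitor of Ras activation, rose by 1.23 (SE 0.21, adjusted p 0.0192). Dusp6, a phosphatase of ERK in the cytoplasm, changed by -0.63 (SE 0.11, adjusted p 0.0245). The Dusp6 call was lost without any of the 5 NOD arrays in turn, and 1 of the 2 rises without unstimulated NOD replicate 2, either anti-IgM NOD array or unstimulated NR4 replicate 1. In the strain comparison no gene of the 10 lists was called.

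**Figure D4:**
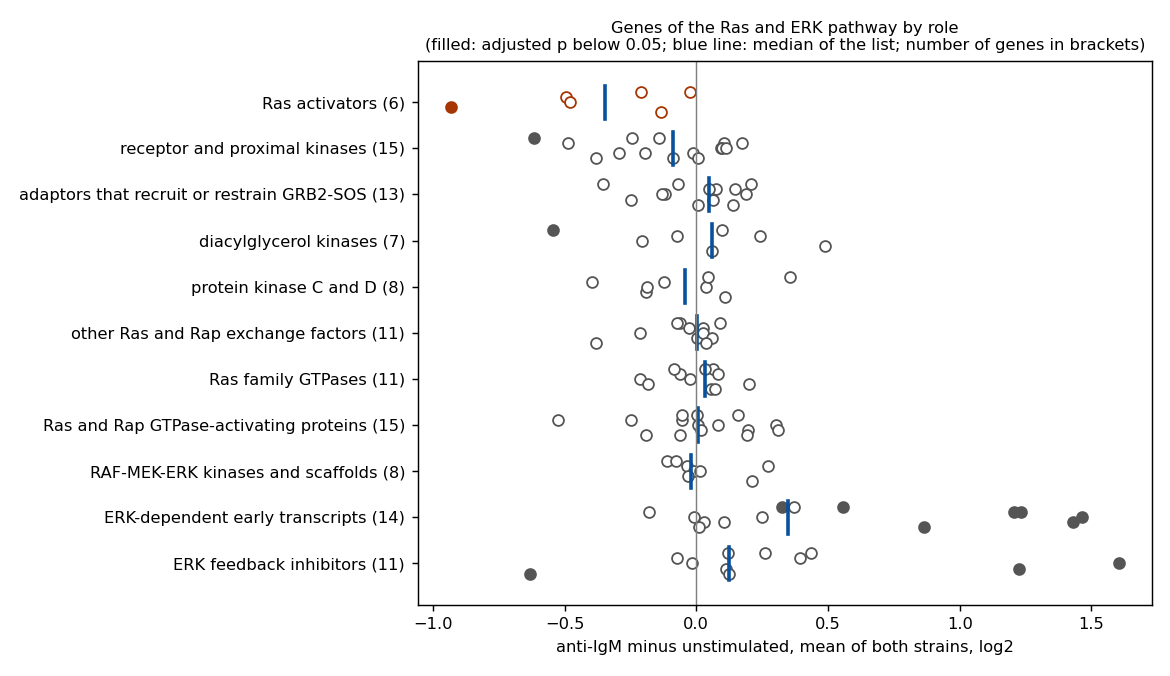
Averaged anti-IgM minus unstimulated difference (horizontal axis, log2) of every measured gene in the 6 Ras activators (top row) and the 10 pathway lists, with the number of genes in brackets; filled points have an adjusted p below 0.05 and blue lines are list medians. The Ras activators have a median of -0.34 and their filled point is Rasgrp3, while the filled points among early transcripts, 7 of 14, lie above 0.

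Of 9 measured B cell markers 3 fell and 6 did not pass, against 0.841 percent of all genes called lower. Those that fell were Cd22, an inhibitory co-receptor, by 0.99 on the log2 scale (adjusted p 0.0264), Cd79b as above, and Ms4a1, which encodes CD20, by 0.51 (adjusted p 0.0159). The list median was -0.41, and Pax5 and Blk read above 0, at 0.03 and 0.10. The mean over the 9 markers was 0.10 to 0.19 on unstimulated NOD arrays, -0.35 to -0.02 on anti-IgM NOD arrays, -0.16 to 0.31 on unstimulated NR4 arrays and -0.47 to -0.21 on anti-IgM NR4 arrays. The cultures were separate on this measure in both strains, and its part in the fall of Rasgrp3 was not tested. The count of 3 became 1 without unstimulated NOD replicate 2 or anti-IgM NOD replicate 1, 2 without any of 5 other arrays, 0 without anti-IgM NOD replicate 2 and 4 without unstimulated NR4 replicate 2.

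Markers of cells in which Rasgrp1 and Rasgrp2 are best known did not pass. For T cells 0 of 10 markers were called, with a median of 0.12, Cd3e at 0.23, Cd3g at -0.10, Cd4 at 0.0079 and Cd8a at -0.08. Their mean was -0.18 to 0.19 on unstimulated NOD arrays, -0.06 to 0.18 on anti-IgM NOD arrays, -0.31 to 0.13 on unstimulated NR4 arrays and -0.05 to 0.11 on anti-IgM NR4 arrays, overlapping in both strains. For megakaryocytes and platelets 0 of 8 were called, with a median of 0.09, Pf4 at -0.08, Itga2b at 0.08 and Gp9 at 0.09. Their mean ran from -0.11 to 0.17 and 0.02 to 0.03 in NOD, and from -0.10 to -0.01 and -0.01 to 0.33 in NR4, in unstimulated and anti-IgM arrays. Another call was Itgax, 1 of 7 dendritic cell markers measured, which rose by 0.50 (adjusted p 0.0173). This call was lost without unstimulated NOD replicate 2 or either anti-IgM NOD array. All 7 lay above 0, with a median of 0.08. Irf4, 1 of 7 plasma cell markers measured, rose by 0.79 (adjusted p 0.000636). Of the plasma cell markers 4 lay above 0 and 3 below, with a median of 0.01. No NK, monocyte, neutrophil or erythroid marker passed, although the monocyte marker Cd14, named after its value was seen, passed with the replicate block (0.58 without it, adjusted p 0.0635, and 0.0357 with it).

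The genes whose values over the 11 arrays were most like those of Rasgrp3 are given as a description, by Pearson r over arrays that share lots and cultures. They were Gid8 (r 0.972), Ralgps2 (0.969), 4930426D05Rik (0.969), Slc14a1 (0.968) and Il12a (0.966). Of the 5, 4 also fell, with Ralgps2 at -0.93, 4930426D05Rik at -1.18, Slc14a1 at -1.55 and Il12a at -1.21 (adjusted p 0.000659 to 0.00851), and Gid8 was at -0.21 (adjusted p 0.135). Genes picked for a profile like that of Rasgrp3 on these same arrays share its difference between cultures. Their falls thus follow from the choice and are no separate result. Rasgrp1 was most like Phyh (0.960), Cdadc1 (0.959) and Orai2 (0.946), and Rasgrp2 most like Ap1s3 (0.909), Tbc1d10c (0.908) and Polg2 (0.895). Sos1 was most like Prex1 (0.967), Foxn3 (0.933) and Ints12 (0.932), Sos2 most like Zswim1 (0.964), Zranb1 (0.930) and Pigv (0.929), and Grb2 most like Gpr39 (0.913), Rpsa (0.890) and Kif23 (0.884). None of these 15 neighbours passed in the averaged response.

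Among the members themselves, Pearson r over the 11 arrays was 0.78 for Rasgrp1 with Rasgrp3, 0.80 for Rasgrp2 with Rasgrp3 and 0.58 for Rasgrp1 with Rasgrp2. After the group means were taken away these became 0.64, 0.49 and 0.14. Sos1 and Sos2 had an r of 0.81, and 0.71 after the group means were taken away. Grb2 had an r of 0.16 to 0.41 with the other members. The arrays share lots and, in part, quality, so these values describe the arrays and carry no test.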

How the data were processed

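RNA of 11 arrays was compared. The submitters' processing notes name RMA, and the authors' deposited values were taken as log2, a base that is not stated. The software version is not given in the sources used here. Each of the 45101 probe sets had a median of 0 over the arrays, so the values had also been centred, which removes levels and keeps differences. Column medians were -0.0011 to 0.0219. RNA was amplified in 1 cycle from an oligo(dT) primer, per the labels' protocols, so signals weigh the 3' ends of transcripts. The number of arrays limits the precision.

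Groups came from the sample titles, and genes from the platform's annotation (34945 probe sets with 1 symbol; 99.4% matched RefSeq, GRCm38.p6, by Entrez identifier). All 6 members matched the RefSeq promoter table. Using limma 3.58.1 under R 4.3.3, a model with a mean for each of 4 groups was fitted to 18193 genes, leaving 7 residual degrees of freedom, and to 45037 single probe sets without the 64 controls. Variances were moderated (eBayes), and p-values, two-sided, were adjusted by Benjamini-Hochberg for each of 7 comparisons. The steps were tested on simulated data. The members, lists and comparisons were chosen with earlier results of these data known. The text names all members, for each list up to 4 called genes or else the 2 of smallest p, called markers, a few T cell and platelet markers, and the 3 genes (5 for Rasgrp3) most like each member.

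Pairing of same-numbered arrays was checked through the correlation of their deviations from group means. It was 0.329, 0.219 and 0.473 between the NR4 cultures, 0.629 and 0.118 between the NOD cultures, and 0.59, 0.207 and 0.512 between the unstimulated strains, all above the limit of 0.1. NOD alone and the anti-IgM strain comparison (0.366 and -0.121) have only 2 pairs, so pairing was not assumed there. The deviations of the 2 anti-IgM NOD arrays are exact opposites, so those pairs are not independent. Alternatives were other gene summaries, quantile normalization, array medians removed, a fixed or random replicate block, array weights, robust moderation, only the groups compared, and each array left out. Centred values allow no filter on dim probes.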

Additional observations from a re-analysis of the deposited data

How the results depend on the processing

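Rasgrp3 kept its averaged call in all 9 other settings (-1.05 to -0.86, adjusted p 0.000233 to 0.0059) and in all 11 fits without an array; no strain or interaction call of a member appeared. With the fixed replicate block 558 genes were called in the averaged response (2 members), 52 in NOD (1 member, Rasgrp3, adjusted p 0.0445), 229 in NR4 (2 member probe sets) and 37 in the averaged strain comparison. The block changed no other call of a member gene. With the replicate number within strain as a random block these were 756 (6 member probe sets), 91 (1 member), 353 (2 member probe sets) and 12. With array weights they were 506 (5 member probe sets), 94 (1 member), and 35 in the strain average, with 127 in unstimulated strains. Quantile normalization left 9 genes in NOD and 16 in NR4 with 0 members and 0 member probe sets. With only the groups compared the counts were 0 in NOD, 9 in NR4 (0 members, 0 member probe sets) and 4 for anti-IgM strains. With the lowest-numbered probe set they were 12 in NOD and 46 in NR4, and 8 member pairs passed. The cause of these shifts was not tested.

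Signs turned for values that were not called. With the lowest-numbered probe set Sos1 gave 0.0286 averaged, 0.0424 in NOD and 0.0148 in NR4, Rasgrp1 minus Rasgrp2 gave 0.25 and Sos1 minus Grb2 0.11; without _s_at and _x_at probe sets Rasgrp1 minus Rasgrp2 gave 0.12. Quantile normalization gave -0.11 for the Rasgrp3 interaction, -0.0166 for its anti-IgM strain difference and 0.0011 for Grb2 in NOD. Array weights gave 0.0319 for Grb2 in NOD and, between strains, 0.0132 for Rasgrp1 and -0.0097 for Sos2.

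Leaving out each array gave 76 to 273 genes in the averaged response (lowest without anti-IgM NOD replicate 2), 0 to 25 in NOD, 21 to 50 in NR4, 12 to 21 in the strain average, 4 to 10 in anti-IgM strains and 8 to 11 in unstimulated strains. Member probe sets called were 1 to 4 averaged and 0 to 1 in NR4, and 0 to 8 member pairs passed. Values that changed sign ranged from -0.0187 to 0.27 for the Rasgrp3 interaction, -0.0333 to 0.16 for Rasgrp3 between unstimulated strains, -0.29 to 0.26 for Rasgrp1 minus Rasgrp2, -0.0439 to 0.0179 for Grb2 in NOD, and, between strains, -0.22 to 0.21 for Rasgrp1 and -0.0301 to 0.11 for Sos2. Where a single anti-IgM NOD array was left, it was assumed to vary like the other groups.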
